A study of Mus musculus with 12 samples.

Results

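The accessible chromatin of 3 glucose transporter genes (Slc2a1, Slc2a3 and Slc2a6), 3 hexokinase genes (Hk1, Hk2 and Hk3) and Hif1a was followed by ATAC-seq in 12 mouse libraries, all labelled as macrophages derived from marrow. ATAC-seq counts the reads that a transposase leaves where DNA is open, so a peak is a stretch of open chromatin and its level is not an RNA level. Every peak that the authors' tables assign to 1 of these 7 genes was taken, which gave 104 of 139999 peaks: 10 for Slc2a1, 17 for Slc2a3, 6 for Slc2a6, 18 for Hk1, 15 for Hk2, 8 for Hk3 and 30 for Hif1a. The assignment is that of the authors' peak annotation, and 51 of the 104 peaks lie within 10 kb of the annotated start it gives. The Hif1a peaks reach 156.2 kb upstream, and 6 of them lie in introns of the neighbouring gene Prkch. Of the other Hif1a peaks, 9 lie in 1 transcript without a gene symbol and 2 in another, while 2 lie in exons or introns of Hif1a itself. Of the Hk2 peaks, 4 lie in exons or introns of Hk2 and others in transcripts without a gene symbol. Of the Hk1 peaks, 3 lie in Hk1os and 1 in Hkdc1, and 2 Hk3 peaks lie in Uimc1.

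The libraries fall into 6 groups of 2, all from male C57BL/6J mice aged 8 weeks at allocation. The first-phase groups are diabetic and healthy cells, and the labels used here do not say at which point these cells were collected. The rest-phase groups are diabetic-trained and untrained cells, grown from marrow progenitors for 7 days with M-CSF in medium with 5 mmol/L glucose. The second-phase groups are diabetic-trained and untrained cells cultured in the same way and then given 10 ng/mL IFN-γ with 100 ng/mL LPS for 16 hours. Diabetic animals had received streptozotocin, which destroys insulin-producing cells, at 42 to 45 mg/kg per day for 5 days after a 12 hour fast, had passed 16.9 mmol/L blood glucose and were hyperglycaemic for 6 weeks before marrow was taken. The labels do not say whether both libraries of a group stem from different mice, so p-values reflect only how these libraries scatter, and that scatter may be technical. The column headers do not tie either group mean of a table to diabetic or control cells. Each table's first mean column is called A here and its second B, and the letter A may stand for different conditions in different phases.

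Glucose enters macrophages by facilitated transport and is trapped inside the cell when a hexokinase phosphorylates it, which is the entry step of glycolysis. Slc2a1 encodes GLUT1, the main uptake transporter of activated macrophages, Slc2a3 encodes the high-affinity transporter GLUT3, and Slc2a6 encodes GLUT6, an intracellular transporter that inflammatory stimuli raise in macrophages. Hk1 is the widely expressed hexokinase, Hk2 the inducible one that binds mitochondria, and Hk3 the form typical of myeloid cells. Hif1a encodes the oxygen-regulated subunit of the transcription factor HIF-1, which is stabilised in hypoxia and in inflammatory activation and drives Slc2a1, Hk2 and other glycolytic genes.

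The start regions that carry these peaks are shown because the start peaks anchor the comparisons that follow. RefSeq promoter windows (build GRCm38.p6, from 250 bases before to 50 bases after the start) matched 6 of the 7 genes, and 5 of them overlap the start peak of their gene. The exception is Hk1, whose windows (chr10:62340372-62340671 and chr10:62379859-62380158) overlap no Hk1 peak and are not shown. Capitals mark the core of the HIF binding site, ACGTG or GCGTG, on either strand (the other strand reads CACGT or CACGC).
Slc2a1 (chr4:119108495-119108794, plus strand): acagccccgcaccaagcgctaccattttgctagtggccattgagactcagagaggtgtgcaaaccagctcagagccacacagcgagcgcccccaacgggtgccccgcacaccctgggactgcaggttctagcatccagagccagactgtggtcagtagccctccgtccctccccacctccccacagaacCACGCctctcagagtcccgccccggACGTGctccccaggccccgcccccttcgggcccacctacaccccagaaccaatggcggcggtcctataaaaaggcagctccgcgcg
Slc2a6 (chr2:27027949-27028248, minus strand): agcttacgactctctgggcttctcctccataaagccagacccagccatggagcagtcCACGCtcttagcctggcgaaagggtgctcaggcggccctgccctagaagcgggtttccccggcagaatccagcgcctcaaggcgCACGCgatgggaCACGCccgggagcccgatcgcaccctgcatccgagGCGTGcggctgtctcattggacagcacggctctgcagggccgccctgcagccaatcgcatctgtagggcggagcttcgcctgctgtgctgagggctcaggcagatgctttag
Hk2 (chr6:82774405-82774704, minus strand): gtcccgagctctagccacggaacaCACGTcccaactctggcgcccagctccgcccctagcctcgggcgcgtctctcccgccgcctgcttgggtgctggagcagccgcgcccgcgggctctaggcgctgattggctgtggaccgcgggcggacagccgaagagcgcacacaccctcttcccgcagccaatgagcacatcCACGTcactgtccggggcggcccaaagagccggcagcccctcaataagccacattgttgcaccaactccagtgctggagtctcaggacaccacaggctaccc
Hk3 (chr13:55021336-55021635, minus strand): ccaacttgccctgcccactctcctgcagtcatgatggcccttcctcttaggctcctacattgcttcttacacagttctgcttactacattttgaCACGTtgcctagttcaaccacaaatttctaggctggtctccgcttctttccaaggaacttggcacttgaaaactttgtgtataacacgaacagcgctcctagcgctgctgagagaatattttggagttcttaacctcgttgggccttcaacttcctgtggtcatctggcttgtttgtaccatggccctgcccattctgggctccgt
Hif1a (chr12:73907617-73907916, plus strand): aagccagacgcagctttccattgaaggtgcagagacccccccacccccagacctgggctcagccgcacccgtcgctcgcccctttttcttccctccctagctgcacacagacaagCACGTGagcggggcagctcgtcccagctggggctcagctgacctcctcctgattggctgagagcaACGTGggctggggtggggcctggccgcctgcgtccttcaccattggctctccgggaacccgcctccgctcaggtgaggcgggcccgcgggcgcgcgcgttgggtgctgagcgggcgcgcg
Slc2a6 holds 4 of these cores, Hif1a 3 (of which a pair overlaps, since that stretch reads the same on both strands), Slc2a1 and Hk2 hold 2 each and Hk3 holds 1. Of the Hk1 windows that are not shown, the one at chr10:62340372-62340671 holds 5 cores and the other 0. At least 1 core stands in 43.8% of all 32851 promoter windows of the table, with ACGTG in 19.6% and GCGTG in 32.4%, so a core in such a window is common. The SP motif GGGCGG, also searched on both strands, occurs 3 times at Hk2 and 2 times each at Slc2a1 and Slc2a6 (35.7% of all windows hold it), and the PU.1 motif GAGGAA occurs 1 time, at Hk3 (28.3% of all windows). The IRF motif GAAANNGAA (8.56% of windows) and the AP-1 motif TGANTCA (7.81%) have no match in these 5 windows, which says only that those letters are not there.

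Reads per library, recovered from the deposited group means, summed to between 3832347 and 18617444 in peaks. The rest-phase libraries had 18617444 and 16002834 in A, against 5459236 and 8775958 in B. The second-phase libraries had 17994363 and 10299555 in A, against 3832347 and 6075270 in B. All 104 peaks have reads in all 12 libraries. The 2 libraries of first-phase group A stood close to sampling noise, with a variance ratio of 1.13, and their mean counts as 1 sample where phases are compared. Macrophage markers were open in every library (mean level at 8 start peaks 7.08 to 7.48 in the first phase, 7.34 to 7.70 in the rest phase and 7.64 to 7.77 in the second phase). The first-phase libraries were also open at markers of other marrow cells, which goes against the labelled cell type for them and stands beside each comparison of the rest phase with the first phase. Neutrophil markers (8 of 8 with a peak) had mean levels of 3.82 to 4.76 in the rest phase and 7.10 to 7.97 in the first phase. B cell markers (6 of 6) stood at 3.51 to 4.57 and 5.87 to 7.30, erythroid markers (5 of 5) at 2.74 to 3.63 and 6.15 to 7.50, and T and NK cell markers (5 of 6) at 4.78 to 5.85 and 6.34 to 6.72, each with the rest phase given before the first phase. The mean of the stromal markers (5 of 5) differed little, at 4.6 to 4.9 in the rest phase and 5.0 to 5.4 in the first phase. Its members went different ways. Col1a1 was lower in the rest phase (3.45 to 5.38, against 7.35 to 7.86) and Lepr higher (5.09 to 5.86, against 3.58 to 5.08). Col1a2, Pdgfra and Cxcl12 overlapped between the phases. The second-phase libraries do not stand together. At 15 genes known to respond to IFN-γ and LPS, a list chosen after levels had been seen, libraries A2 and B2 had mean levels of 7.63 and 7.83, while A1 and B1 had 5.62 and 5.67, close to the 5.41 to 5.61 of the rest phase. Library A1 of the second phase was nearer to library A1 of the rest phase (variance ratio 1.94) than the 2 rest-phase libraries of group A were to each other (3.05).

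Start peaks, 1 per gene, are the peaks nearest to an annotated start (of several over a start, the one with the higher mean level), and their level is given as log2 (reads + 1) after quantile scaling over the 12 libraries. All are 400 bases wide, so levels can be set side by side. The limma fits were scaled over the libraries of their own comparison only. Their folds can therefore differ from the difference between the levels printed beside them. Distances of other peaks are to the nearest annotated start of their gene, while the plot of second-phase levels orders peaks by distance from the start peak. In the first phase Hif1a had the highest level, 9.19 to 9.39 over the 4 libraries, followed by Hk2 at 8.71 to 9.08, Slc2a6 at 8.39 to 8.83, Slc2a1 at 8.42 to 8.53, Hk3 at 7.83 to 8.80, Hk1 at 7.20 to 7.72 and Slc2a3 at 6.79 to 7.29. Hif1a lay above all other genes there, while each other neighbouring pair in that order overlapped except Hk3 and Hk1. In the rest phase the order was Hk2 (9.17 to 9.40), Hif1a (9.12 to 9.23), Hk3 (8.91 to 9.17), Slc2a6 (8.67 to 8.84), Slc2a1 (8.18 to 8.71), Slc2a3 (6.98 to 7.45) and Hk1 (5.70 to 5.89). Hk2 overlapped with Hif1a, Hif1a with Hk3 and Slc2a6 with Slc2a1, and the other neighbours did not. In the second phase the order of medians was Hk2, Slc2a6, Hif1a, Hk3, Slc2a1, Slc2a3 and Hk1, with ranges of 9.16 to 9.80 at Hk2, 8.54 to 9.59 at Slc2a6, 8.83 to 9.18 at Hif1a, 8.64 to 9.20 at Hk3, 7.78 to 9.34 at Slc2a1, 5.93 to 6.87 at Slc2a3 and 4.93 to 5.78 at Hk1. The first 5 genes overlapped with each other in that phase, and Slc2a3 and Hk1 lay below them. The place of Slc2a3 in these orders is that of its upstream annotated start. The peak over its downstream annotated start stood at 8.26 to 8.97 in the first phase. It stood at 5.33 to 5.58 in the rest phase and 4.93 to 5.35 in the second phase.

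**Figure D1:**
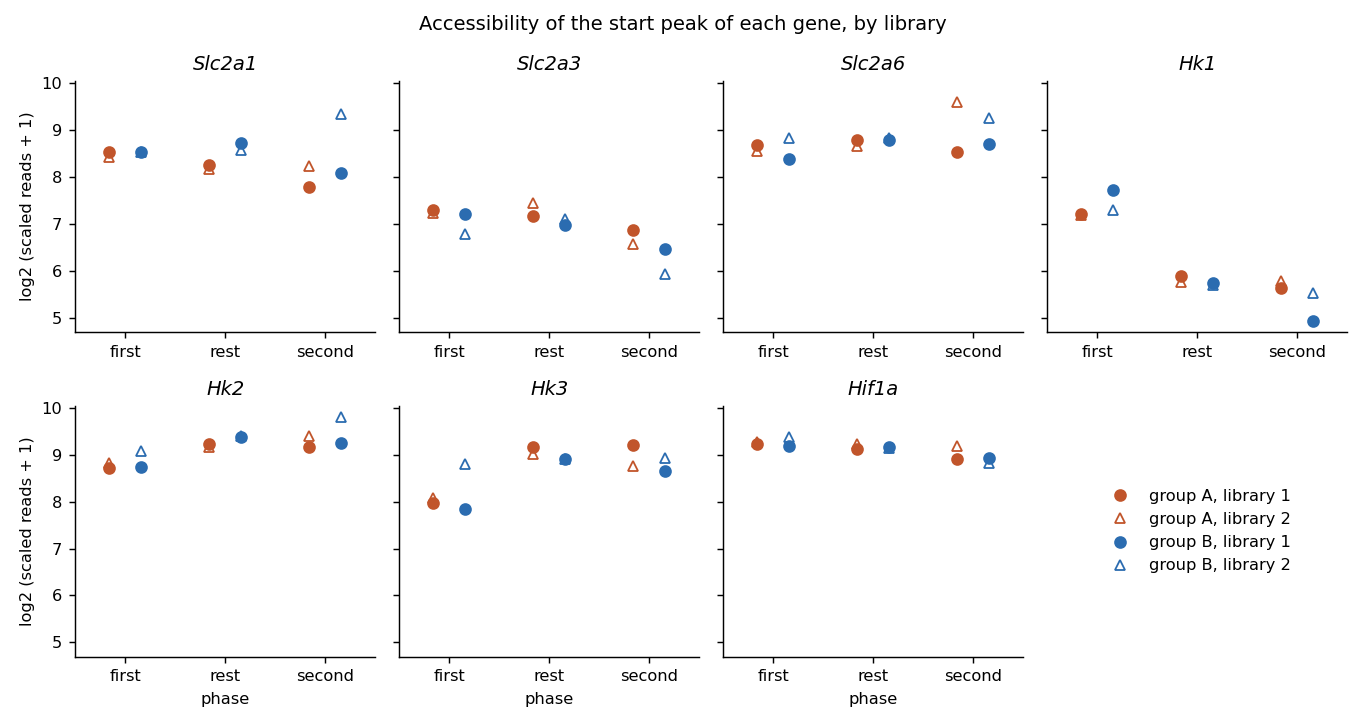
Level of the start peak of each gene in each library, as log2 (scaled reads + 1), by phase, with group A left of group B. Hk1 lies at 5.70 to 5.89 in the rest phase and at 7.20 to 7.72 in the first phase, Hk3 lies higher in the rest phase, and the start peak of Hif1a stays between 8.83 and 9.39 in all 12 libraries.

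The comparison of the rest phase (n = 4) with the first phase (n = 3) asks how the chromatin of these genes differs between cultured macrophages and the first-phase cells. Groups A and B were pooled within each phase, so each n and SD mixes libraries of diabetic and control origin. With quantile scaling the start peaks of the hexokinase genes moved in different directions: that of Hk1 fell while those of Hk2 and Hk3 rose. None of these was called under the authors' scaling. With total reads the fold at Hk2 turned to -0.11 and the start peak of Hk3 was not called. Slc2a3 lost accessibility at 1 of its starts and at a row of intron peaks. The main start peak of Hif1a did not pass the test, while peaks upstream of it moved both ways. Of the 104 peaks, 17 were higher in the rest phase and 29 lower (limma on quantile-scaled recovered reads, Benjamini-Hochberg adjusted p under 0.05 over all peaks), where 19.8% of all peaks were called higher and 18.9% lower. The median log2 fold was -0.29 over the 104 peaks and 0.02 over all peaks. Scaling to total reads in peaks gave 24 higher and 22 lower, beside 26.4% and 13.4% of all peaks, with a median of -0.10 over the members and 0.29 over all peaks. The authors' scaling gave 14 higher and 7 lower, beside 23.5% and 4.99% of all peaks, with medians of 0.37 and 0.74, so the split of directions depends on the scaling. The mean marker levels of neutrophils, B cells, erythroid cells and T and NK cells above move with the same contrast. Their part in these folds was not tested. In such bulk libraries fewer cells of a type and less open chromatin per cell cannot be told apart.

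Among the transporters, Slc2a3 changed most. It has 17 peaks, of which 1 was higher in the rest phase, 7 were lower and 9 did not pass. The peak over its downstream annotated start (chr6:122742429-122742828) stood at 5.33, 5.58, 5.43 and 5.46 in libraries A1, A2, B1 and B2 of the rest phase, against 8.50, 8.53, 8.26 and 8.97 in those of the first phase. The phases did not overlap, and every rest-phase library lay close to the others. The log2 fold was -3.20 (SE 0.24, adjusted p = 6.94e-07), and it was called under all 15 other settings tried. The peak over the upstream annotated start (chr6:122801267-122801666), which the rule takes as the start peak, had 7.17, 7.45, 6.98 and 7.10 in the rest phase, against 7.29, 7.24, 7.21 and 6.79 in the first phase. These values interleave, and the fold of 0.09 (SE 0.22, adjusted p = 0.788) did not pass.

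The intron peaks of Slc2a3 between its annotated starts include the largest change among all 104. A peak 13.0 kb from the nearest annotated start (chr6:122766575-122766974) had levels of 2.14, 3.18, 4.65 and 3.38 in the rest phase, against 7.75, 7.70, 7.41 and 8.23 in the first phase. High in all first-phase libraries, it was low in all rest-phase ones, with a log2 fold of -4.46 (SE 0.47, adjusted p = 7.57e-06). A neighbour (chr6:122761008-122761407) fell by 3.41 (SE 0.39, adjusted p = 1.55e-05) and another (chr6:122785091-122785490) fell by 2.35 (SE 0.35, adjusted p = 0.000129) on the log2 scale. The single peak of Slc2a3 that rose lies in the same intron (chr6:122758737-122759136) and averaged 8.17 ± 0.15 in the rest phase (SD, n = 4) and 7.33 ± 0.29 in the first phase (SD, n = 3). Its fold was 0.87 (SE 0.20, adjusted p = 0.00283), and the authors' scaling gave a larger fold of 1.61 without calling it (limma adjusted p = 0.0619).

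Slc2a1, the gene of the main uptake transporter, had 2 peaks higher, 2 lower and 6 not called. Its start peak (chr4:119108544-119108943) had levels of 8.26, 8.18, 8.71 and 8.57 in the rest phase, against 8.53, 8.42, 8.53 and 8.53 in the first phase. The phases overlapped and the fold of -0.09 (SE 0.17, adjusted p = 0.729) did not pass. The peak with the smallest p lies 18.3 kb into the gene, in its intron 2 (chr4:119127214-119127613), with 7.24, 7.13, 7.14 and 7.35 in the rest phase, against 7.98, 8.04, 7.69 and 8.28 in the first phase. All rest-phase libraries lay below all first-phase ones (fold -0.82, SE 0.20, adjusted p = 0.00543), though the authors' scaling gave -0.25 and no call (limma adjusted p = 0.814). A peak 6.1 kb upstream of the start (chr4:119102196-119102595) rose by 1.24 (SE 0.38, adjusted p = 0.0173), averaging 5.69 ± 0.56 in the rest phase and 4.42 ± 0.61 in the first phase. Another intron peak (chr4:119121267-119121666) rose by 1.06 (SE 0.34, adjusted p = 0.0221), and 1 at 22.3 kb into the gene (chr4:119131165-119131564) fell by 1.01 (SE 0.34, adjusted p = 0.0276), with a fold of 0.06 under the authors' scaling. Both peaks that rose lay highest in different rest-phase groups: the upstream one had 6.07 and 6.26 in A, against 5.24 and 5.17 in B, and the intron one had 5.63 and 5.56 in A, against 6.77 and 6.30 in B.

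Slc2a6, the gene of the intracellular transporter, had 0 peaks higher, 2 lower and 4 not called. Its start peak (chr2:27027842-27028241), which holds the 4 HIF cores shown above, had 8.79, 8.67, 8.79 and 8.84 in the rest phase, against 8.68, 8.54, 8.39 and 8.83 in the first phase, with a fold of 0.17 (SE 0.16, adjusted p = 0.410). Both peaks that fell lie beside it. One (chr2:27026749-27027148) had 5.36, 5.09, 6.41 and 5.88 in the rest phase, against 7.62, 7.63, 6.62 and 7.78 in the first phase, and the phases did not overlap (fold -1.67, SE 0.35, adjusted p = 0.00178). The other (chr2:27025533-27025932) averaged 7.29 ± 0.20 in the rest phase (SD, n = 4) and 8.28 ± 0.48 in the first phase (SD, n = 3), a fold of -1.04 (SE 0.24, adjusted p = 0.00294).

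**Figure D2:**
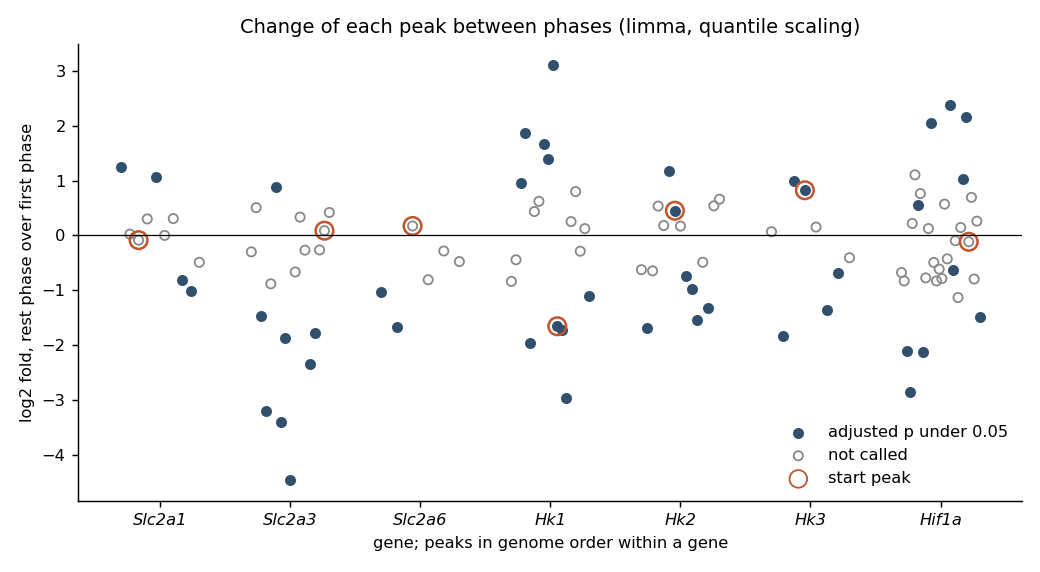
Log2 fold of each of the 104 peaks between the rest phase and the first phase, from limma on quantile-scaled reads, by gene. Filled points passed an adjusted p under 0.05 and ringed points are start peaks. Slc2a3 reaches -4.46 and Hk1 spans -2.97 to 3.11. The start peaks of Slc2a1, Slc2a6 and Hif1a lie near 0, as does that of Slc2a3, which lies over its upstream start.

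Among the hexokinases, Hk1 held the widest spread of changes, with 5 peaks higher, 5 lower and 8 not called out of 18. Its start peak (chr10:62327484-62327883) had levels of 5.89, 5.75, 5.73 and 5.70 in the rest phase, against 7.21, 7.20, 7.72 and 7.30 in the first phase. This peak is the one nearest to a start in the authors' annotation, and it lies outside the RefSeq windows of Hk1. The rest-phase libraries lay within 0.2 of each other and far below the first phase, with a fold of -1.66 (SE 0.24, adjusted p = 8.59e-05). That call was lost under the authors' scaling (fold -0.82, adjusted p = 0.434). A peak 4.7 kb upstream of that start (chr10:62332482-62332881) fell by 2.97 (SE 0.32, adjusted p = 9.82e-06), averaging 3.98 ± 0.36 in the rest phase and 6.97 ± 0.45 in the first phase. In the opposite direction, a peak 3.6 kb into the gene, in intron 1 (chr10:62323744-62324143), had 9.06, 8.95, 7.67 and 7.47 in the rest phase, against 5.06, 5.70, 4.64 and 5.56 in the first phase. This is the largest gain among the 104 peaks under quantile scaling, with a fold of 3.11 (SE 0.39, adjusted p = 3.13e-05). Further into the gene a peak in intron 3 (chr10:62300214-62300613) rose by 1.87 (SE 0.25, adjusted p = 4.59e-05), with 8.40, 7.78, 7.96 and 7.69 in the rest phase, against 5.70, 5.97, 5.99 and 6.54 in the first phase. One in intron 2 (chr10:62306476-62306875) fell by 1.97 (SE 0.42, adjusted p = 0.00202).

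Hk2, the inducible hexokinase, had 2 peaks higher, 5 lower and 8 not called. Its start peak (chr6:82774357-82774756) had 9.23, 9.18, 9.38 and 9.40 in the rest phase, against 8.71, 8.82, 8.74 and 9.08 in the first phase. The phases did not overlap, and the fold was 0.45 (SE 0.14, adjusted p = 0.0217). Scaling to total reads in peaks turned it to -0.11 (adjusted p = 0.710), so its direction depends on the scaling. A peak 6.0 kb downstream of the start (chr6:82766544-82766943) rose by 1.18 (SE 0.25, adjusted p = 0.00180), averaging 6.74 ± 0.21 in the rest phase and 5.55 ± 0.22 in the first phase. Far into the gene, in intron 7, a peak (chr6:82741380-82741779) had 4.47, 4.00, 4.65 and 4.09 in the rest phase, against 5.79, 5.88, 5.82 and 6.37 in the first phase, and fell by 1.68 (SE 0.31, adjusted p = 0.000671). Upstream, peaks at 30.5 kb (chr6:82804992-82805391) and 40.3 kb (chr6:82814782-82815181) fell by 1.54 (SE 0.42, adjusted p = 0.00996) and by 1.33 (SE 0.40, adjusted p = 0.0164), with libraries of the phases overlapping at both.

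Hk3, the myeloid hexokinase, had 2 peaks higher, 3 lower and 3 not called. Its start peak (chr13:55021192-55021591) had 9.17, 9.02, 8.91 and 8.92 in the rest phase, against 7.97, 8.08, 7.83 and 8.80 in the first phase. The first-phase library B2 lay close to the rest phase and the other 3 well below it. The fold was 0.82 (SE 0.21, adjusted p = 0.00667), and it was not called with total reads (0.60, limma adjusted p = 0.0925), with the authors' scaling (1.07, adjusted p = 0.141) or without first-phase library B1 (0.56, adjusted p = 0.0522). A peak 0.4 kb into the gene (chr13:55020107-55020506) rose by 1.00 (SE 0.21, adjusted p = 0.00151), with 9.16, 8.47, 9.09 and 9.05 in the rest phase, against 7.94, 7.89, 7.74 and 8.33 in the first phase. Another 2.6 kb into the gene (chr13:55017902-55018301) fell by 1.84 (SE 0.36, adjusted p = 0.000947), averaging 5.62 ± 0.65 in the rest phase and 7.44 ± 0.56 in the first phase. Of the peaks further upstream, 1 at 13.5 kb (chr13:55034847-55035246) fell by 1.36 (SE 0.41, adjusted p = 0.0169), and 1 at 18.7 kb, in an intron of Uimc1 (chr13:55040036-55040435), fell by 0.68 (SE 0.21, adjusted p = 0.0183).

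Hif1a, the regulator, had 5 peaks higher, 5 lower and 20 not called. Its start peak (chr12:73907647-73908046) had 9.12, 9.23, 9.17 and 9.15 in the rest phase, against 9.23, 9.28, 9.19 and 9.39 in the first phase, with a fold of -0.12 (SE 0.13, adjusted p = 0.502). Scaling to total reads in peaks gave a fold of -0.80 there, and called it (limma adjusted p = 0.00359). The peak over an alternative upstream start (chr12:73901126-73901525) had 6.54, 6.91, 6.77 and 6.65 in the rest phase, against 5.21, 4.54, 4.32 and 4.36 in the first phase. All rest-phase libraries lay above all first-phase ones, with a fold of 2.16 (SE 0.27, adjusted p = 3.03e-05), called under all 15 other settings. A peak 20.6 kb upstream (chr12:73880398-73880797) had 8.47, 8.38, 7.70 and 7.75 in the rest phase, against 5.48, 5.48, 5.42 and 6.29 in the first phase, and a fold of 2.38 (SE 0.28, adjusted p = 1.89e-05). Gains and losses alternated along the upstream region. A peak 82.1 kb upstream (chr12:73818837-73819236) rose by 2.05 (SE 0.50, adjusted p = 0.00454), while 1 at 19.5 kb (chr12:73881456-73881855) fell by 0.63 (SE 0.21, adjusted p = 0.0310). Both were named after their values were seen, and the peak at 19.5 kb was not called with total reads (-0.27) or the authors' scaling (0.20), which turned its direction. A peak 143.8 kb upstream, in an intron of Prkch (chr12:73757148-73757547), had 3.68, 3.68, 4.04 and 3.65 in the rest phase, against 7.02, 7.09, 5.94 and 7.00 in the first phase, and fell by 2.85 (SE 0.34, adjusted p = 1.95e-05). Another at 106.9 kb (chr12:73794047-73794446) fell by 2.12 (SE 0.28, adjusted p = 5.22e-05), averaging 4.68 ± 0.26 in the rest phase and 6.81 ± 0.29 in the first phase. Both of these lie far from the gene, the one at 143.8 kb within Prkch.

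Of the 46 peaks called in this comparison, 42 kept the sign of their fold under all 15 other settings and 15 were called under all of them. With scaling to total reads 45 kept their sign and 35 their call, and with the authors' scaling 43 and 19. Of the peaks named above, the authors' scaling also left uncalled both Slc2a6 peaks that fell (-0.60 and -0.90), the Hk1 peak in intron 2 (-1.17), the Hk2 start peak (0.35) and the Hif1a peak at 106.9 kb (-1.15). The same held for the Hk2 peaks in intron 7 (-0.66) and upstream (-0.40 and -0.53), and for the Hk3 peaks at 0.4 kb (1.37), 2.6 kb (-1.11), 13.5 kb (-0.45) and 18.7 kb (-0.12). Total reads left uncalled the Slc2a1 peak at 22.3 kb (-0.41), both upstream Hk2 peaks (-0.87 and -0.97) and the Hk3 peak at 18.7 kb (-0.59).

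The rest-phase table compares group A with group B, diabetic-trained and untrained cells in an order the headers do not give. Of the 104 peaks, 36 were higher in A and 0 higher in B in the authors' deposited table, against 39.7% and 0.0929% of all peaks, so the members' share of 34.6% lies near that of all peaks. The median log2 fold of the members was 0.95, and that of all peaks 1.04. The peaks called higher in A numbered 3 for Slc2a1, 7 for Slc2a3, 1 for Slc2a6, 5 for Hk1, 6 for Hk2, 2 for Hk3 and 12 for Hif1a. The group A libraries hold more reads in peaks than those of B, as given above. Total reads per library are not given here, so this does not show that group A was sequenced more deeply. The factors by which the authors' scaling multiplies reads overlapped between the rest-phase groups. The part of the difference in reads in peaks in the deposited folds was not tested. With quantile scaling the median of all peaks was -0.02, and limma called 7 members higher in A and 3 higher in B, where 6.48% and 5.56% of all peaks were called. Scaling to total reads gave 11 and 9, where 13.1% and 8.29% of all peaks were called. The authors' scaling in limma gave 53 and 1, where 54.9% and 0.461% of all peaks were called, so that count also lies near the share of all peaks.

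At the start peaks the direction depended on the scaling. The start peak of Slc2a1 had log2 group means of 8.94 in A and 8.10 in B in the authors' deposited table (fold 0.63, adjusted p = 0.331), and quantile-scaled levels of 8.26 and 8.18 in A, against 8.71 and 8.57 in B (limma fold -0.35, SE 0.11, adjusted p = 0.0616). At Hk2 the deposited means were 9.68 in A and 8.90 in B (fold 0.60, adjusted p = 0.342), and the quantile-scaled levels 9.23 and 9.18 in A, against 9.38 and 9.40 in B (limma fold -0.17, SE 0.08, adjusted p = 0.194). Hif1a had deposited means of 9.65 in A and 8.65 in B (fold 0.80, adjusted p = 0.184) and a limma fold of 0.01 (SE 0.08, adjusted p = 0.929). The start peaks called in the authors' deposited table were those of Slc2a3 (means 8.22 in A and 6.41 in B, fold 1.49, adjusted p = 0.0139) and Hk1 (6.78 in A and 5.01 in B, fold 1.46, adjusted p = 0.0154). In limma with quantile scaling neither passed, with 0.25 (SE 0.16, adjusted p = 0.329) at Slc2a3 and 0.10 (SE 0.23, adjusted p = 0.800) at Hk1. The start peaks of Slc2a6 and Hk3 were not called in either fit: the authors' deposited table gives folds of 0.78 (adjusted p = 0.218) and 0.93 (adjusted p = 0.142), and limma -0.07 and 0.15.

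**Figure D3:**
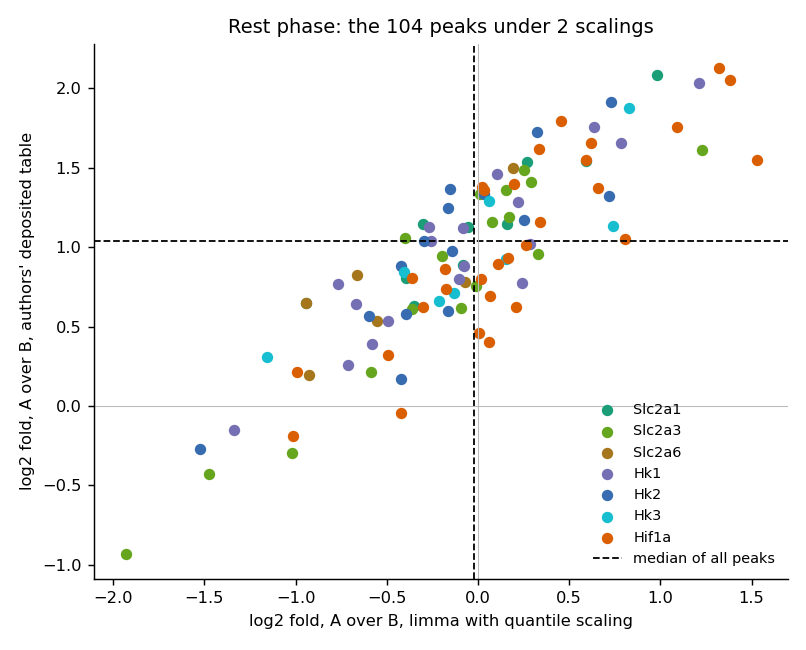
Log2 fold of group A over group B in the rest phase for the 104 peaks, with limma on quantile-scaled reads across and the authors' deposited table up the page. Dashed lines mark the median of all peaks, -0.02 and 1.04, and the members scatter around both lines.

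A few peaks differed between the rest-phase groups under both scalings. They are the 7 of the 104 that limma with quantile scaling called higher in A, where 6.48% of all peaks were so called. The share of all peaks called under both scalings is not given here, so their number is no result about these genes. The clearest is the Hk1 intron 1 peak that also gained most between phases. It had 9.06 and 8.95 in group A, against 7.67 and 7.47 in group B, with no overlap. Its recovered reads were 893 and 713 in A, against 109 and 171 in B. The authors' deposited table gives a fold of 2.03 (adjusted p = 0.00209), and limma 1.21 (SE 0.12, adjusted p = 0.00133). At Hk3 a peak 1.3 kb upstream of the start (chr13:55022672-55023071) had 7.60 and 7.61 in A, against 6.74 and 6.70 in B (limma fold 0.83, SE 0.15, adjusted p = 0.00962, deposited fold 1.88). At Hk2 a peak 49.8 kb upstream (chr6:82824282-82824681) had 7.71 and 7.59 in A, against 7.00 and 6.73 in B (limma fold 0.73, SE 0.16, adjusted p = 0.0193, deposited fold 1.92). The Slc2a1 peak 6.1 kb upstream had a limma fold of 0.98 (SE 0.24, adjusted p = 0.0311) and a deposited fold of 2.08 (adjusted p = 0.00135).

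Hif1a had 3 such peaks, all upstream of the gene. The one at 82.1 kb (chr12:73818837-73819236) had 6.44 and 6.08 in A, against 4.65 and 5.31 in B (limma fold 1.32, SE 0.30, adjusted p = 0.0238, deposited fold 2.13). The one at 135.9 kb, in a Prkch intron (chr12:73765108-73765507), had 5.15 and 5.15 in A, against 3.70 and 4.01 in B (1.38, SE 0.35, adjusted p = 0.0339, deposited fold 2.05). At 20.6 kb the difference was smaller, 8.47 and 8.38 in A, against 7.70 and 7.75 in B (0.59, SE 0.11, adjusted p = 0.0129, deposited fold 1.55). The 3 peaks that limma called higher in B were 1 in Slc2a1 intron 2 (chr4:119121267-119121666, fold -0.94, SE 0.24, adjusted p = 0.0328), 1 in Hk2 intron 3 (chr6:82747027-82747426, -1.52, SE 0.38, adjusted p = 0.0328) and 1 within Hk3, 2.6 kb from its start (-1.16, SE 0.25, adjusted p = 0.0184). None of these 3 was called in the authors' deposited table, where their folds were 0.65, -0.27 and 0.31. With any 1 library left out, a single library stands for its group, so only folds are given here for those fits. Over the 6 other settings the lowest fold was 1.07 at the Hk1 peak and 0.78 at the Hk3 peak. At the Hif1a peak at 20.6 kb it was 0.55. All 7 peaks higher in A kept their sign. They were picked for that sign in these same libraries, so keeping it is no separate support.

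Of the larger deposited folds that quantile scaling did not call, Slc2a1 had 1.54 at a peak 31.2 kb away (chr4:119140122-119140521) and 1.53 in intron 2 (chr4:119124796-119125195). Slc2a3 had 1.61 (chr6:122783827-122784226), 1.41 (chr6:122724646-122725045) and 1.36 (chr6:122804454-122804853), and Slc2a6 had 1.50 (chr2:27025533-27025932). The hexokinase peaks were 1.76, 1.66 and 1.29 at Hk1, 1.72, 1.37 and 1.33 at Hk2, and 1.29 at Hk3. Hif1a had 1.80 (chr12:73755654-73756053) and 1.76 (chr12:73772906-73773305), both in Prkch introns. These values, all from the authors' deposited table, stand beside a median of 1.04 over all its peaks.

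In the first phase the groups could not be told apart at these genes. The authors' deposited table called 0 of the 104 peaks, 0 had an unadjusted p under 0.05, and 0% of all peaks were called. With quantile scaling limma also called 0, with 1 at an unadjusted p under 0.05. This fit takes the close pair of group A as 2 libraries. With either one left out limma called 0 as well, with 2 and 6 at an unadjusted p under 0.05. The peak that passed the unadjusted p with all libraries lies 128.1 kb upstream of Hif1a, in a Prkch intron, and had 4.51 and 5.23 in group A, against 3.20 and 3.76 in group B (limma fold 1.12, SE 0.39, adjusted p = 0.991). The authors' folds are shrunken close to 0 in this table, from -0.0023 to 0.0030 over the members, so they do not measure small differences. The start peak of Hk1 had log2 group means of 6.50 in A and 6.86 in B in the authors' deposited table, that of Hif1a 9.68 and 9.36, and that of Slc2a1 8.56 and 8.35.

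In the second phase the authors' deposited table called 16 members higher in A and 0 higher in B, against 26.7% and 0.00429% of all peaks. Their median fold was 0.69, and that of all peaks 0.86. Calls numbered 5 for Slc2a3, 4 for Hk1, 2 each for Slc2a6, Hk2 and Hif1a, 1 for Hk3 and 0 for Slc2a1. The start peak of Slc2a3 had log2 means of 7.46 in A and 5.30 in B (fold 1.69, adjusted p = 0.0242 in the authors' deposited table), that of Hk1 6.32 and 4.72 (1.26, adjusted p = 0.0360) and that of Hif1a 9.45 and 7.86 (1.20, adjusted p = 0.0444). limma on the recovered reads called 0 of the 104 with quantile scaling, where 0% of all peaks were called, and 0 with each other scaling, with 1 at an unadjusted p under 0.05 in each. At the start peak of Slc2a3 the libraries had 6.87 and 6.57 in A, against 6.46 and 5.93 in B (limma fold 0.52, SE 0.45, adjusted p = 1.00). At that of Slc2a1 they had 7.78 and 8.24 in A, against 8.08 and 9.34 in B, where the library B2 stands apart. Libraries 1 and 2 differ from each other in both groups, as given above.

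The comparison of the second phase with the rest phase asks what the IFN-γ and LPS stimulus did to these genes. With all 4 libraries of each phase limma called 0 of the 104 peaks (smallest adjusted p 0.422), with 16 at an unadjusted p under 0.05, and 0% of all peaks. voom also called 0, with 14 at an unadjusted p under 0.05. The shares of all peaks under that unadjusted p are not given here, so these counts are no result about these genes. The peaks with the smallest p of each gene had folds of 0.72 at Slc2a1 (chr4:119125735-119126134), -1.28 at Slc2a3 (chr6:122724646-122725045), -0.67 at Slc2a6 (chr2:27045906-27046305), 1.48 at Hk1 (chr10:62350359-62350758, in Hk1os), 1.15 at Hk2 (chr6:82753124-82753523), 0.84 at Hk3 (chr13:55022672-55023071) and 1.99 at Hif1a (chr12:73870602-73871001). Start peak folds ran from -0.70 at Slc2a3 to 0.21 at Slc2a6. Since the second-phase libraries split at the response genes, each library is given for the peaks that follow. Without libraries A1 and B1, which were singled out after their levels were seen, 22 members were higher in the second phase and 3 lower, where 9.14% of all peaks were higher and 6.11% lower. Of the 22, 12 belong to Hif1a, 3 to Hk1, 2 each to Hk2 and Hk3, and 1 each to Slc2a1, Slc2a3 and Slc2a6, and the 3 lower ones are 2 of Slc2a3 and 1 of Hk1. Without A2 and B2 instead, 0 were called, with 3 at an unadjusted p under 0.05. These counts describe the libraries and do not test the stimulus.

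Libraries A2 and B2 both lay above all 4 rest-phase libraries at 34 of the 104 peaks and both below at 13, where 17.8% and 22.9% of all peaks did so. Libraries A1 and B1 both lay above at 8 and both below at 8, where 6.66% and 8.78% of all peaks did. The 34 peaks comprise 18 of the 30 of Hif1a, 6 of the 15 of Hk2, 3 each of Hk1 and Hk3, 2 of Slc2a1, and 1 each of Slc2a3 and Slc2a6. Of the 13 peaks below, 7 belong to Slc2a3 and 3 to Hif1a. The peaks described next, other than those with the smallest p above and the start peaks, were chosen after their values were seen.

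At Hif1a the row of upstream peaks stood out, while the start peak did not. The peak at 30.4 kb (chr12:73870602-73871001) had 6.87 and 6.22 in second-phase libraries A2 and B2 and 3.75 and 4.33 in A1 and B1, against 3.45, 3.29, 3.12 and 3.65 in the rest phase. At 24.6 kb (chr12:73876350-73876749) the values were 6.70 and 6.76 in A2 and B2 and 4.07 and 4.65 in A1 and B1, against 4.18, 3.42, 3.70 and 3.79 in the rest phase. The most distant peak, at 156.2 kb in Prkch (chr12:73744761-73745160), had 6.85 and 6.91 in A2 and B2 and 3.54 and 4.80 in A1 and B1, against 3.58, 3.75, 4.04 and 4.20 in the rest phase. At each of these, A2 and B2 lay more than 2 above the highest rest-phase library. The start peak had 9.18 and 8.83 in A2 and B2 and 8.90 and 8.93 in A1 and B1, against 9.12 to 9.23 in the rest phase, and showed no such gap.

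Hk2 showed the largest gap of the hexokinases. A peak 2.4 kb upstream of its start (chr6:82776853-82777252) had 6.65 and 7.17 in A2 and B2 and 3.00 and 3.22 in A1 and B1, against 3.10, 2.89, 3.36 and 3.38 in the rest phase. It was low in the first phase too, at 3.82, 3.85, 2.70 and 2.64. In intron 2 of Hk2 (chr6:82753124-82753523) the values were 7.51 and 7.70 in A2 and B2 and 5.45 and 5.87 in A1 and B1, against 5.69, 4.84, 5.51 and 5.82 in the rest phase. The Hk2 start peak itself had 9.41 and 9.80 in A2 and B2 and 9.16 and 9.26 in A1 and B1, against 9.23, 9.18, 9.38 and 9.40 in the rest phase, a small gap above the rest phase.

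Hk1 moved in both directions. A peak in intron 14 (chr10:62277915-62278314) had 6.35 and 6.90 in A2 and B2 and 3.26 and 3.45 in A1 and B1, against 3.29, 2.70, 4.51 and 4.01 in the rest phase. A peak 2.2 kb from an annotated start (chr10:62287698-62288097) had 4.32 and 5.57 in A2 and B2 and 6.86 and 7.00 in A1 and B1, against 6.93, 6.96, 7.00 and 7.07 in the rest phase, and was the one Hk1 peak that fell without A1 and B1. At Hk3 the peak in intron 2 (chr13:55016492-55016891) had 7.03 and 7.14 in A2 and B2 and 5.12 and 4.18 in A1 and B1, against 5.33, 5.21, 4.91 and 5.91 in the rest phase. The Hk3 peak 1.3 kb upstream had 8.48 and 8.67 in A2 and B2 and 7.64 and 7.66 in A1 and B1, against 7.60 and 7.61 in rest-phase group A and 6.74 and 6.70 in rest-phase group B. All 4 second-phase libraries lay above the rest phase there, A2 and B2 the farthest.

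Among the transporters, the start peak of Slc2a6 had 9.59 and 9.26 in A2 and B2 and 8.54 and 8.70 in A1 and B1, against 8.79, 8.67, 8.79 and 8.84 in the rest phase. Slc2a1 had its gap in intron 2 (chr4:119125735-119126134), with 8.95 and 9.35 in A2 and B2 and 8.10 and 8.25 in A1 and B1, against 8.21, 7.58, 7.63 and 7.77 in the rest phase. Its start peak was high in B2 alone (9.34, with 8.24 in A2). Slc2a3 went the other way at its upstream start: 6.57 and 5.93 in A2 and B2 and 6.87 and 6.46 in A1 and B1, against 7.17, 7.45, 6.98 and 7.10 in the rest phase. All 4 second-phase libraries lay below the rest phase at that peak, and B2 lay lowest.

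**Figure D4:**
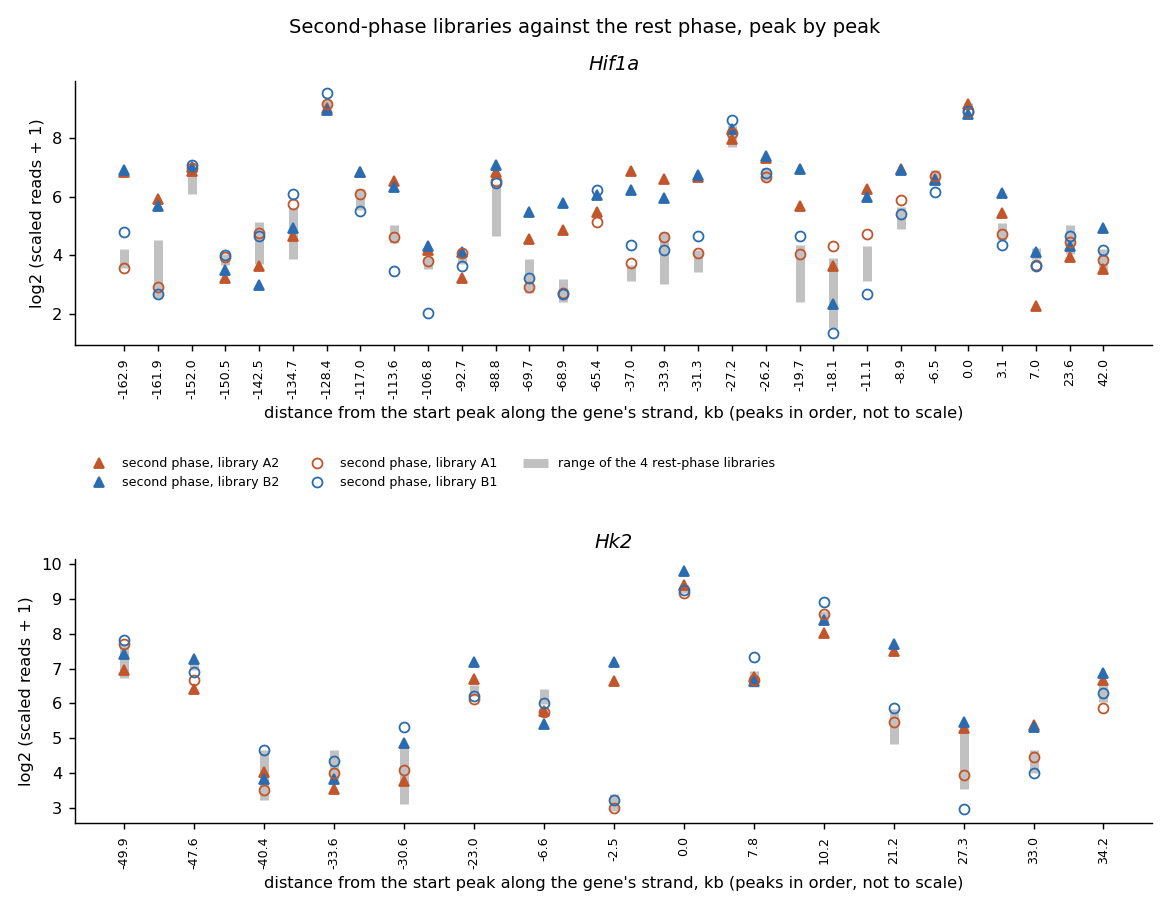
Levels, as log2 (scaled reads + 1), of the peaks of Hif1a and Hk2 in the 4 second-phase libraries (triangles A2 and B2, open circles A1 and B1) with the range of the 4 rest-phase libraries as grey bars, ordered by distance from the start peak. Triangles clear the grey bars at 18 of 30 Hif1a peaks and 6 of 15 Hk2 peaks, and both genes' start peaks lie close to the bars.

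Other genes of the pathway were counted over lists chosen with earlier results of these data known. In the rest phase against the first phase, other glucose transporters (60 peaks of 11 genes) had 10 peaks higher (16.7%), 6 lower (10.0%) and 44 not called, with a median fold of 0.03, beside 19.8% higher, 18.9% lower and a median of 0.02 over all peaks. Other hexokinases and their partners (50 peaks of 8 of 10 genes) had 5 higher (10.0%), 16 lower (32.0%) and 29 not called (median -0.34). HIF partners and oxygen sensors (188 peaks of 12 genes) had 33 higher (17.6%), 32 lower (17.02%) and 123 not called (median -0.03). HIF targets and regulators of glucose uptake (141 peaks of 15 of 16 genes) had 21 higher (14.9%), 40 lower (28.4%) and 80 not called (median -0.29).

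Except where stated, the peaks named here are among the 3 with the smallest p of each list in this comparison, and other peaks of the same gene may differ in direction. Ldha, the gene of a lactate dehydrogenase subunit, had a peak 0.3 kb from its start (chr7:46841813-46842212) with 2.46, 1.94, 2.82 and 2.97 in the rest phase, against 7.61, 7.57, 6.94 and 7.86 in the first phase (fold -4.91, SE 0.37, adjusted p = 7.67e-07). Adpgk, an ADP-dependent glucokinase, fell by 4.83 at a peak 7.1 kb upstream (chr9:59284086-59284485, SE 0.45, adjusted p = 3.19e-06). Slc16a3, the lactate exporter MCT4, fell by 2.93 at a peak 6.2 kb upstream (SE 0.28, adjusted p = 3.43e-06), and Vegfa, the angiogenic HIF target, fell by 2.61 at 13.4 kb upstream (SE 0.29, adjusted p = 1.15e-05). Egln3, a prolyl hydroxylase that marks HIF subunits for decay, fell by 3.02 at a peak 38.8 kb from its start (SE 0.27, adjusted p = 2.48e-06), and Cited2, which competes with HIF for its coactivators, fell by 3.62 at a peak 231.3 kb upstream (SE 0.40, adjusted p = 9.90e-06). Another Cited2 peak, 133.7 kb upstream (chr10:17589146-17589545), had higher values of 7.41, 7.32, 5.43 and 5.74 in the rest phase, against 4.07, 4.34, 3.38 and 5.56 in the first phase, with an overlap between phases. Epas1, which encodes the HIF-2 subunit, rose by 3.08 at a peak 89.8 kb upstream (chr17:86663521-86663920), with 6.97, 7.10, 6.96 and 6.88 in the rest phase, against 3.82, 3.58, 4.09 and 3.92 in the first phase (SE 0.27, adjusted p = 1.93e-06). Of the other transporters, Slc2a9, a urate transporter, rose by 2.60 at 5.4 kb upstream (SE 0.32, adjusted p = 2.47e-05), Slc2a5, the fructose transporter, rose by 1.82 at 1.6 kb upstream (SE 0.22, adjusted p = 2.15e-05), and Slc5a2, a sodium-coupled glucose transporter, fell by 2.66 at its start (SE 0.35, adjusted p = 4.61e-05).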

How the data were processed

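ATAC-seq of 12 libraries was deposited as 3 peak tables, 1 per phase, over the same 139999 peaks (build mm10), each with 2 log2 group means, a log2 fold, a p-value and an adjusted p-value computed by the authors. The submitters' processing notes name, without roles, DiffBind 3.14.0, DESeq2, HOMER 5.1, Bowtie2 2.5.4, MACS2, Picard 3.2.0, bedtools 2.28.0 and deepTools 3.2.1. The deposited log2 group mean is the mean of scaled whole reads of 2 libraries, so each library's reads were solved from it (100% of group means above 0, largest relative miss 3.47e-09). Libraries are numbered by what 1 read is worth, not by labels. The deposited folds were turned to A over B where the tables give B over A. Peaks listed at 0 in any group (442) were left out of limma, leaving 139557. Recovered reads were tested with limma 3.58.1 (R 4.3.3, trend, log2 of reads + 1) after quantile scaling, with p-values adjusted by Benjamini-Hochberg over all these peaks. Where phases were compared, groups A and B of a phase were pooled and no term for group was fitted. Tables were built with Python 3.11.15. In the deposited table of the second phase, there are 38000 peaks listed at adjusted p 1, and adjustment covers the other 101999. For each gene the start peak was named, with the peak of smallest p and up to 3 further called peaks by fold. Members and lists were chosen with earlier results of these data known. The fits were tested on simulated data. Alternatives were other scalings, voom, pseudocount 5, a minimum of 10 reads, a threshold of 0.01, and libraries left out.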

Additional observations from a re-analysis of the deposited data

How the results depend on the processing

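The authors' deposited rest-phase table called 36 peaks, of which 11 passed an adjusted p under 0.01, and limma called 10 with quantile scaling, 20 with total reads and 0 to 0 with 1 library left out. For the second phase (16 in the deposited table) 0 passed 0.01, and limma called 0 under each of 3 scalings and 0 to 0 with 1 library left out. The authors' scaling left 21 calls between rest and first phase, against 46, and leaving out 1 library left 37 to 48. The second phase against the rest phase gave 25 calls without A1 and B1, against 0. Rest-phase start-peak folds, positive in the deposited table, turned to -0.35 (quantile) and -0.52 (total) at Slc2a1, -0.070 and -0.31 at Slc2a6 and -0.17 and -0.56 at Hk2, and with total reads to -0.14 at Hk3 and -0.34 at Hif1a. With 1 library left out they ran from -0.41 to -0.28 at Slc2a1, -0.13 to -0.020 at Slc2a6, -0.20 to -0.15 at Hk2 and -0.037 to 0.065 at Hif1a. In the second phase they turned to -0.57 and -0.36 at Slc2a1 and -0.21 and -0.014 at Hk2, and with 1 library left out ran from -1.10 to -0.056 at Slc2a1, -0.35 to 0.57 at Slc2a6, -0.44 to 0.025 at Hk2 and -0.022 to 0.33 at Hk3. Between rest and first phase the reversed values were 0.084 (authors' scaling) and 0.17 (without rest-phase A) at Slc2a1, -0.068 (without rest-phase A) at Slc2a3, and with total reads -0.23 at Slc2a6 and -0.11 at Hk2. Leaving out 1 library gave -0.19 to 0.0039 at Slc2a1 and -0.066 to 0.18 at Slc2a3. Between second and rest phase they were 0.32 at Slc2a1 (without A1 and B1), -0.18 (authors' scaling) and -0.13 (without A2 and B2) at Slc2a6, and -0.052 (total), -0.35 (authors' scaling) and -0.074 (without A2 and B2) at Hk2. Leaving out 1 library gave -0.32 to 0.11 at Slc2a1 and -0.017 to 0.17 at Hk2. The cause of these changes was not tested. For the threshold of 0.01, fits with 1 library left out and unadjusted p-values, the shares of all peaks are not given. Member counts under those settings, here and above, are therefore no result about these genes. No paired analysis was possible because the columns carry no replicate numbers. With 2 libraries a group and 3832347 to 18617444 reads in peaks, small differences are not detectable, and leaving a library out assumes that the lone one varies like the others.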

Other observations

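Across the 12 libraries, the start peak whose level followed that of Slc2a1 most closely was that of Pgm1, phosphoglucomutase (Pearson r 0.93), among 12727 start peaks. For Slc2a6 it was Mir1932 (0.95) and then Pla2g4a, a phospholipase (0.94). For Hk1 it was Dpy19l3 (0.98), for Hk2 Upp1, uridine phosphorylase (0.95), and for Hk3 Mideas (0.94). For Slc2a3, at its upstream start, it was Ptprm (0.97), and for Hif1a Gtpbp8 (0.95). Among the members, the Hk2 start peak had r of 0.74 with Hk3, 0.70 with Slc2a6 and -0.78 with Hk1. These values are descriptions, since the 12 libraries share phases, depth and scaling.

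Between the rest-phase groups, quantile-scaled limma called 4 of 60 peaks higher in A (6.67%) and 2 higher in B (3.33%) among other glucose transporters, where 6.48% and 5.56% of all peaks were called. The counts were 4 (8.00%) and 2 (4.00%) of 50 among other hexokinases and partners, and 9 (4.79%) and 4 (2.13%) of 188 among HIF partners and oxygen sensors. Among HIF targets and regulators of glucose uptake they were 2 (1.42%) and 13 (9.22%) of 141. A peak assigned to Slc2a12 (chr10:22603453-22603852) had levels of 2.89 and 2.17 in A, against 6.21 and 6.47 in B (fold -4.05, SE 0.40, limma adjusted p = 0.00147). A peak of Pkm, pyruvate kinase (chr9:59667825-59668224), had 4.12 and 4.00 in A, against 6.21 and 6.47 in B (fold -2.37, SE 0.28, limma adjusted p = 0.00245). At Pfkfb3 a peak (chr2:11441910-11442309) had 7.9 and 7.9 in A, against 8.8 and 8.8 in B (fold -0.73, SE 0.10, limma adjusted p = 0.00423). A peak of Pdk1, a kinase that restrains pyruvate dehydrogenase (chr2:71924033-71924432), had 7.41 and 6.91 in A, against 5.73 and 5.61 in B (fold 1.48, SE 0.22, limma adjusted p = 0.00497).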
